A study of Homo sapiens with 10 samples.

Results

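Rb occupancy was examined at the promoters of 8 genes that supply, escort and assemble histones: NASP, ASF1A, ASF1B, CHAF1A, CHAF1B, RBBP4, RBBP7 and SLBP. A gene counted as bound where a called Rb peak overlapped the region from 2000 bp upstream to 500 bp downstream of any of its annotated transcription starts, and the 8 were read against the 19970 protein-coding genes of chromosomes 1 to 22 and X. The peaks came from CUT&RUN, in which an antibody tethers micrococcal nuclease to chromatin so that the DNA around the bound protein is cut out and sequenced, in OVCAR-3 and Kuramochi, both established human lines of high-grade serous ovarian cancer and both wild type in the labels. Cells of each line received DMSO or the CDK2 inhibitor INX-315 at 300 nM for 2 days, and each line and treatment had 2 Rb libraries, described as biological replicates of a single experiment. Each line also had 1 IgG2a control library, made from its DMSO-treated cells.

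Rb, the retinoblastoma protein, represses genes for the S phase of the cell cycle by binding E2F transcription factors at their promoters, and phosphorylation by cyclin-dependent kinases releases it. New histones are needed in S phase, when DNA doubles. SLBP binds the stem-loop at the end of replication-dependent histone mRNAs, NASP holds the soluble pool of H3 and H4, ASF1A and ASF1B pass H3-H4 on, and the CAF-1 complex of CHAF1A, CHAF1B and RBBP4 deposits them behind the replication fork. RBBP7, the close paralogue of RBBP4, is best known as a partner of the histone acetyltransferase HAT1, and both also sit in chromatin-modifying complexes.

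Library-wide features bear on every value given here. The 4 DMSO libraries held 5221 to 8794 Rb peaks and the 4 INX-315 libraries 13031 to 17281, whereas mean coverage, the average number of fragments over a base, was 0.380 to 0.501 under DMSO and 0.216 to 0.421 under INX-315. Mean coverage was inferred and not measured: it was taken as the lowest local background recovered in each list of peaks. The IgG2a libraries held 257 and 195 peaks, and 0 of them lay at the 8 promoters. Peak height is given as the number of fragments at the summit divided by the mean coverage of the library, so that it is a multiple of the library average. The authors retained duplicate reads, and no spike-in scaled the heights used here, so a height is relative to the rest of its own library. With peak lists alone, the identity of the lines could not be checked against expressed markers.

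All 8 promoters carried an Rb peak in both INX-315 libraries of both lines, CHAF1A in 1 of them only through a neighbouring peak described below. Under DMSO, 7 of 8 were bound in both OVCAR-3 libraries, the exception being ASF1A, and 5 of 8 in both Kuramochi libraries, the exceptions being ASF1A, CHAF1B and RBBP7. Each of those 3 had a peak in Kuramochi DMSO library 2 and none in library 1, so that 8 of 8 were bound when library 1 was left out. Across all protein-coding genes, 26.8% were bound in both OVCAR-3 DMSO libraries, 55.5% in both OVCAR-3 INX-315 libraries, 24.8% in both Kuramochi DMSO libraries and 53.2% in both Kuramochi INX-315 libraries. The members were thus bound more often than genes at large in each of the 4 groups, as a count without a test. The promoters of 5 members, ASF1B, CHAF1A, NASP, RBBP4 and SLBP, had a peak in all 8 Rb libraries, against 18.8% of genes.

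A gain, meaning a peak in both INX-315 libraries and in neither DMSO library of a line, was seen for 1 of 8 members in OVCAR-3, ASF1A, against 16.2% of all genes. In Kuramochi 0 of 8 members were gained, against 14.0% of genes, and 0 of 8 were gained in both lines, against 5.56%. When the lists of a line were trimmed to the same number of top peaks, 7 of 8 members were bound under either treatment in OVCAR-3, and ASF1A was the exception both times. The same trimming in Kuramochi left 5 of 8 under DMSO and 6 of 8 under INX-315, CHAF1B being the difference. Over all genes the trimmed lists left 24.8% and 29.0% bound in OVCAR-3 with DMSO and INX-315, and 21.8% and 25.0% in Kuramochi.

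**Figure D1:**
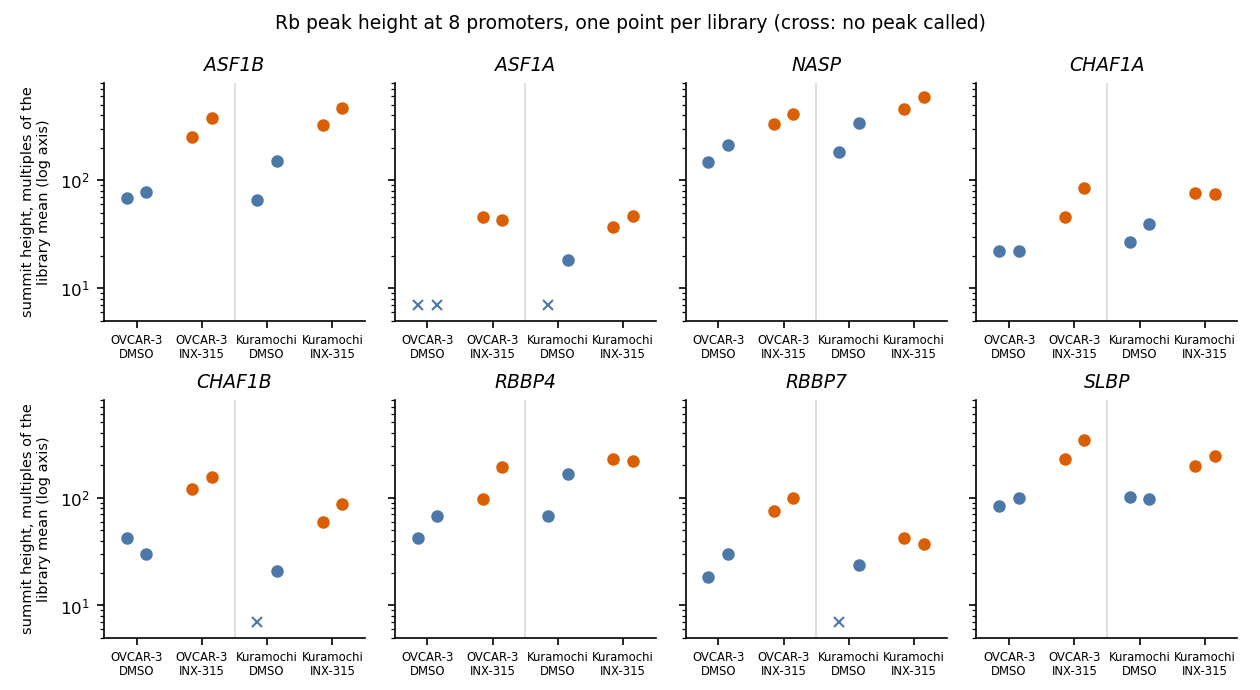
Rb summit height at each of the 8 promoters, as a multiple of the library's mean coverage on a log axis, with 1 point for each of the 8 Rb libraries (blue DMSO, orange INX-315) and crosses for libraries without a called peak. In each line both orange points lie above every blue point drawn at a promoter, and a cross gives no height. At CHAF1A the strongest peak under INX-315 is mostly one at the neighbouring SH3GL1 start.

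The DNA under the summits differed among the members. E2F proteins recognise a family of short sites, and in a window of 600 bp centred on the median summit the octamers TTTCCCGC, TTTCGCGC, TTTGCCGC and TTTGGCGC were sought on both strands. A shorter form, here called the E2F core, is any of these words without its first T, so every octamer also counts as a core. The core was spelled after values had been seen. The core was present in 57.9% of the 3762 genes with a peak in all 8 libraries, and in 29.0% of all 19970 genes when the window was centred on the start. Of the 8 members 6 held it: ASF1B, NASP and CHAF1A at 3 places each, RBBP4 at 2, and CHAF1B and RBBP7 at 1, whereas ASF1A and SLBP held it at 0. Only NASP among the members held the octamer, at 3 places, against 19.6% of the genes with a peak in all 8 libraries. A match describes the letters in the window and is neither a bound site nor a cause. The stretches below show the matches nearest the summits, with core or octamer words in capitals. Also shown are a match of SLBP farther upstream and a stretch of ASF1A that holds none and lies upstream of its 600-bp window. All are from hg38, 5′ to 3′ on the strand of the gene.
NASP, chr1:45584606-45584905, plus strand, first intron: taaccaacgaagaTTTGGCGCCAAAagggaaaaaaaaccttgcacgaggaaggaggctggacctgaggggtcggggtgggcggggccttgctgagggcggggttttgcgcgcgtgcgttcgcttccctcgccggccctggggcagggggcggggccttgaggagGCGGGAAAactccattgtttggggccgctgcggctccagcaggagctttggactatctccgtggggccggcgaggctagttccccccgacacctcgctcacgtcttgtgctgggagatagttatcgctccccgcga
ASF1B, chr19:14136720-14137019, minus strand, upstream of the start: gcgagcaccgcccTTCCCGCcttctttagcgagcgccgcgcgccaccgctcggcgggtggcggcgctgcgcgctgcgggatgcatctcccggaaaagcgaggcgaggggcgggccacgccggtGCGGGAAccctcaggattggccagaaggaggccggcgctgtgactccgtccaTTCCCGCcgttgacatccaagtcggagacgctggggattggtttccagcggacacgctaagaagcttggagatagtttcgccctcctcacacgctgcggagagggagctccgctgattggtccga
CHAF1A, chr19:4402580-4402639, plus strand, up to the start: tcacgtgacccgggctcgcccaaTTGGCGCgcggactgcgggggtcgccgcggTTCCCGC
CHAF1B, chr21:36385379-36385408, plus strand, across the start: gcctgcggcgcGCGGGAAgcggcgcgcgct
RBBP4, chr1:32651156-32651185, plus strand, just upstream of the reference start: tggctgatgTTGGCGCGAAggtgcgcgagt
RBBP7, chrX:16869939-16869968, minus strand, downstream of the reference start: cgccggcgaaagGCGCGAAttggcgtgcgg
SLBP, chr4:1712800-1712829, minus strand, upstream of the start and outside its 600-bp window: gttccgggTTCCCGCcagggaggagacacg
ASF1A, chr6:118893852-118894026, plus strand, upstream of the start, with 0 matches: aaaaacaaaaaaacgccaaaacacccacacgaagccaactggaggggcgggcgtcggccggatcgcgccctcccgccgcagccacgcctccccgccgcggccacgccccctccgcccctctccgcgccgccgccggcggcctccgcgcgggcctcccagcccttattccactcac

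A capital run that begins with G, such as GCGGGAA, is the core read on the other strand. In NASP the run TTTGGCGCCAAA holds the octamer on both strands, with overlapping matches that begin 578 and 582 bp downstream of the start, and the third match begins 729 bp downstream. In RBBP4 the run TTGGCGCGAA likewise holds overlapping core words on the 2 strands. Other promoter words were also counted in the same windows. The cell cycle homology element TTTGAA, which the MuvB complex recognises, was found once each in ASF1A, ASF1B and NASP. It was present in 14.0% of the genes with a peak in all 8 libraries and in 19.3% of all 19970 genes at their starts. CCAAT was found at 7 places in ASF1B, 4 in CHAF1A, 2 in RBBP4 and 1 each in ASF1A, SLBP and RBBP7. At least 1 was found in 53.6% of the genes with a peak in all 8 libraries and in 48.1% of all genes at their starts.

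NASP, the escort of soluble H3-H4, had the highest peak of the 8 in every library by height. Heights do not allow for local background, and by fold enrichment over it NASP stood below SLBP and ASF1B in both OVCAR-3 INX-315 libraries. The values were 45.85 for NASP, 51.86 for SLBP and 48.35 for ASF1B in library 1, and 60.3, 95.26 and 81.85 in library 2. NASP had the highest fold enrichment of the 8 in the other Rb libraries. In OVCAR-3 its heights were 149.6 and 213 with DMSO and 336 and 411 with INX-315, and in Kuramochi 182 and 337 with DMSO and 454 and 597 with INX-315. The groups did not overlap within either line, although the second Kuramochi DMSO library reached the level of the lower OVCAR-3 INX-315 library. The 337 of Kuramochi DMSO library 2 and the 597 of INX-315 library 2 rested on 128 and 129 fragments. Those 2 heights thus differ through the inferred mean coverage, 0.380 against 0.216. Within each list of peaks NASP ranked at percentiles 99.5 to 99.9 by height, under DMSO as under INX-315. By its mean log2 height in the DMSO libraries it ranked number 5 of the 3762 genes with a peak in all 8 libraries. The summits lay 516 to 898 bp downstream of the start, in the first intron, where the octamer matches printed above also lie, and the peaks were 1903 to 2409 bp wide. An RNA gene on the opposite strand, ENSG00000289407, has a start 624 bp from the nearest summit and overlaps the peak in all 8 libraries.

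ASF1B, the H3-H4 chaperone linked to proliferating cells, came second to NASP by height in both INX-315 groups. In OVCAR-3 its heights were 68.7 and 77.8 with DMSO and 254 and 376 with INX-315, and in Kuramochi 65.15 and 153 with DMSO and 326 and 468 with INX-315. The groups stood well apart in both lines, while the 2 Kuramochi DMSO libraries differed from each other by more than any other pair of ASF1B replicates in relative terms. It ranked at percentiles 93.1 to 98.4 under DMSO and 99.1 to 99.7 under INX-315. Summits lay 163 to 297 bp upstream of the start in all 8 libraries, next to the core words that begin at −255 and −307 bp. The antisense RNA gene ADGRL1-AS1 has a start 260 bp from the nearest summit, so the peak cannot be assigned to ASF1B alone.

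ASF1A, the paralogue of ASF1B, was called in 5 libraries, the fewest of the 8 members. No peak was called in either OVCAR-3 DMSO library or in Kuramochi DMSO library 1, and the second Kuramochi DMSO library had a peak of height 18.4. Under INX-315 the heights were 45.7 and 42.8 in OVCAR-3 and 37.05 and 46.3 in Kuramochi. All 4 INX-315 heights exceeded the only DMSO height, and an uncalled peak gives no height for the other DMSO libraries. The INX-315 peaks rested on 10 to 18 fragments and stood near the middle of their lists, at percentiles 50.7 to 57.6. The only DMSO peak was 409 bp wide with its summit 170 bp upstream of the start, and the INX-315 peaks were 1274 to 1367 bp wide with summits 107 to 665 bp downstream. MCM9, which encodes a helicase-related protein, starts on the opposite strand 13 bp from the nearest summit, and the peak cannot be assigned to either gene.

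CHAF1A, the large subunit of CAF-1, needs 2 readings because its promoter region reaches a second peak at the start of SH3GL1, which encodes an endophilin. At its own start in OVCAR-3 the heights were 22.2 and 21.9 with DMSO, with no peak in INX-315 library 1 and 45.2 in INX-315 library 2. In Kuramochi they were 27.0 and 39.5 with DMSO and 74.1 in each INX-315 library. Thus the peak at the CHAF1A start was higher in both INX-315 libraries of Kuramochi, whereas in OVCAR-3 only 1 INX-315 library had a height there, above both DMSO libraries, and an uncalled peak gives no height for the other.

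The SH3GL1 peak, with summits 2100 to 2625 bp upstream of CHAF1A, had no call in OVCAR-3 DMSO library 1 and heights of 15.95 in DMSO library 2 and 45.7 and 85.6 with INX-315. In Kuramochi it had 13.5 and 23.7 with DMSO and 76.6 and 74.1 with INX-315. It is this peak, and not the one at the CHAF1A start, that counts CHAF1A as bound in OVCAR-3 INX-315 library 1. With a narrower region of 500 bp on either side of the start, 7 of 8 members were bound in the OVCAR-3 INX-315 libraries. The own-start summits ran from 72 bp upstream to 161 bp downstream, over the core words printed above.

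CHAF1B, the WD-repeat subunit of CAF-1, in OVCAR-3 had heights of 42.45 and 29.9 with DMSO and 121 and 155 with INX-315. In Kuramochi it was not called in DMSO library 1, had 21.1 in DMSO library 2, and 59.3 and 88.0 with INX-315. In OVCAR-3 the treatments did not overlap, and CHAF1B stood at percentiles 91.7 and 92.3 under INX-315. In Kuramochi both INX-315 heights exceeded that of DMSO library 2, and the uncalled peak in library 1 gives no height. Summits lay between 22 bp upstream and 239 bp downstream of the start, with the single core word across the start itself.

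RBBP4, the histone-binding subunit of CAF-1, in OVCAR-3 had heights of 42.45 and 67.8 with DMSO and 97.9 and 193 with INX-315. In Kuramochi the heights were 67.4 and 166 with DMSO and 227 and 218 with INX-315. Treatments did not overlap within a line, although Kuramochi DMSO library 2 lay above the lower OVCAR-3 INX-315 library. ZBTB8OS, on the opposite strand, has a start 287 bp from the nearest summit.

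RBBP7 in OVCAR-3 had heights of 18.2 and 29.9 with DMSO and 75.04 and 99.9 with INX-315. In Kuramochi it was not called in DMSO library 1, had 23.7 in DMSO library 2, and 42.0 and 37.05 with INX-315. The 2 Kuramochi INX-315 libraries were both lower than the 2 OVCAR-3 INX-315 libraries, and they rested on 17 and 8 fragments. The peak in Kuramochi DMSO library 2 rested on 9 fragments. By fold enrichment over local background, RBBP7 in Kuramochi had 7.25 in DMSO library 2, and 12.81 and 7.09 with INX-315, so the treatments overlapped. RBBP7 peaks were 575 to 843 bp wide under DMSO and 1291 to 1506 bp wide under INX-315, when they reached well upstream of the reference start in all 4 libraries. Over all peaks the median width was 482 to 559 bp under DMSO and 619 to 775 bp under INX-315, so wider peaks were general.

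SLBP, the histone mRNA stem-loop binding protein, in OVCAR-3 had heights of 82.9 and 99.7 with DMSO and 228 and 340.0 with INX-315. In Kuramochi the heights were 101 and 97.4 with DMSO and 198 and 245 with INX-315. The 4 DMSO libraries fell within a narrow range, and every INX-315 library exceeded them. Its rank stayed at percentiles 95.3 to 99.1 throughout. Summits lay 49 to 238 bp upstream of the start, between SLBP and TACC3, which encodes a spindle protein and starts on the opposite strand 301 bp from the nearest summit, so the 2 genes share the peak.

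**Figure D2:**
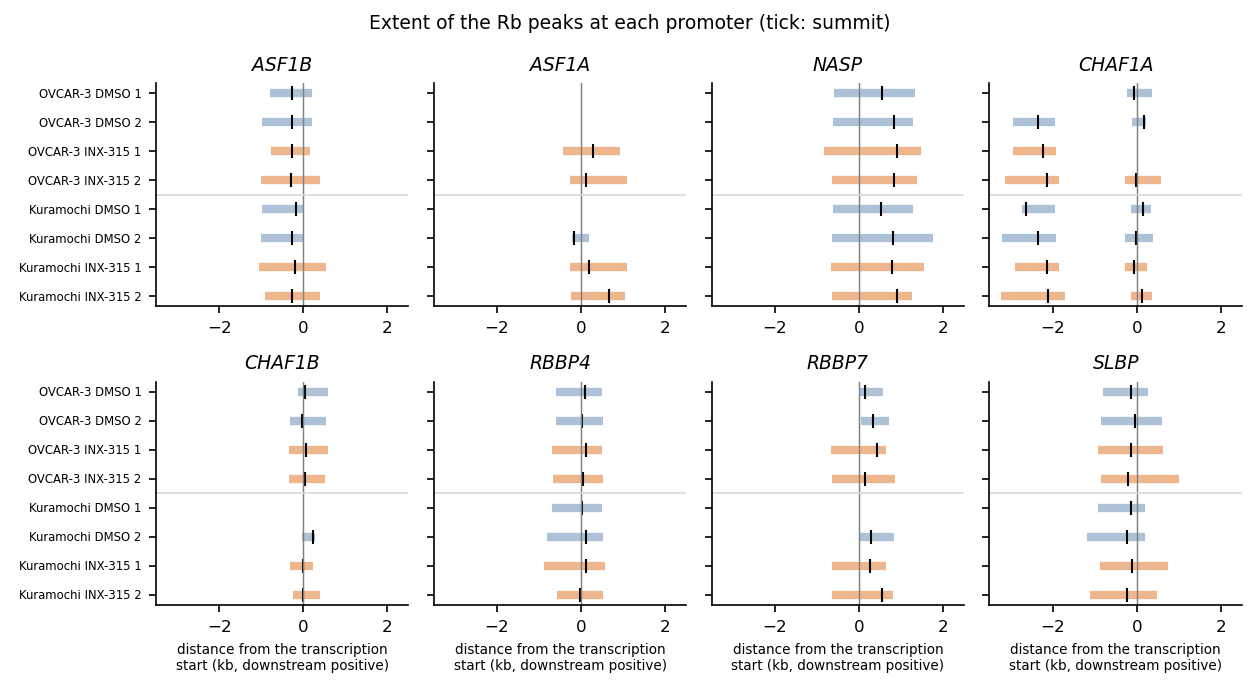
Extent of every Rb peak at the 8 promoters, in kb from the transcription start of the reference transcript with downstream positive, 1 row per library (blue DMSO, orange INX-315) and a tick at the summit. NASP summits sit 516 to 898 bp downstream, ASF1B summits 163 to 297 bp upstream, and CHAF1A shows the second peak at the SH3GL1 start more than 2 kb upstream.

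INX-315 was compared with DMSO on log2 summit height over the 3762 genes with a peak in all 8 Rb libraries, using limma with line and treatment as terms and Benjamini-Hochberg adjustment. All 5 members in that set were called higher under INX-315, but so was 99.7% of the set, and 0.0% was called lower, with 0 genes lower even at an unadjusted p below 0.05. The median change of all genes fitted was 1.64 on the log2 scale, a 3.12-fold difference. ASF1B rose by 2.02 (SE 0.26, adjusted p = 3.6e-13, limma), which placed it at percentile 86.2 of the changes. SLBP, RBBP4 and NASP rose by less than the median gene. SLBP rose by 1.38 (SE 0.27, adjusted p = 4.4e-07), RBBP4 by 1.21 (SE 0.28, adjusted p = 2.1e-05) and NASP by 1.07 (SE 0.23, adjusted p = 4.9e-06), the last at percentile 6.59. The call for CHAF1A does not describe 1 peak, because its 4 DMSO heights are those of the peak at its own start and 3 of its 4 INX-315 heights those of the SH3GL1 peak. It could not be fitted at its own start, where 1 library had no peak.

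A change common to nearly all peaks is also a difference between whole libraries. After each library was centred on the median log2 height of the 3762 genes fitted, 4.81% of the genes were higher and 9.22% lower under INX-315 by limma. Among the 5 members 0 were then higher and 1 was lower, NASP, at −0.62 (SE 0.11, adjusted p = 0.00062). ASF1B was at 0.34 (SE 0.14, adjusted p = 0.10), RBBP4 at −0.47 (SE 0.17, adjusted p = 0.063) and SLBP at −0.30 (SE 0.14, adjusted p = 0.17). NASP thus rose as a height and rose by less than the fitted genes did.

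The reference set decided that sign. When each library was instead centred on the median height of all its peaks, a scaling chosen after seeing the data, 81.6% of the fitted genes were higher and 0.0266% lower, with a median change of 0.87. ASF1B was then at 1.25 (SE 0.23, adjusted p = 8.1e-07, limma), SLBP at 0.61 (SE 0.24, adjusted p = 0.013), RBBP4 at 0.44 (SE 0.25, adjusted p = 0.086) and NASP at 0.30 (SE 0.20, adjusted p = 0.15). The lists of INX-315 libraries were longer, so the peaks behind that median were not the same set under both treatments.

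Genes that already had high peaks under DMSO changed less as a group. The median change was 1.74 in the lowest 10% of genes by mean DMSO height and 1.41 in the highest 10%, a description only, because the DMSO values enter both quantities. ASF1B, NASP, RBBP4 and SLBP stood at percentiles 94.2, 99.9, 91.4 and 95.7 of DMSO height. Against the 1.41 of the highest 10%, ASF1B changed more (2.02, SE 0.26) and NASP less (1.07, SE 0.23). SLBP (1.38, SE 0.27) and RBBP4 (1.21, SE 0.28) lay below that median by less than their SE.

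**Figure D3:**
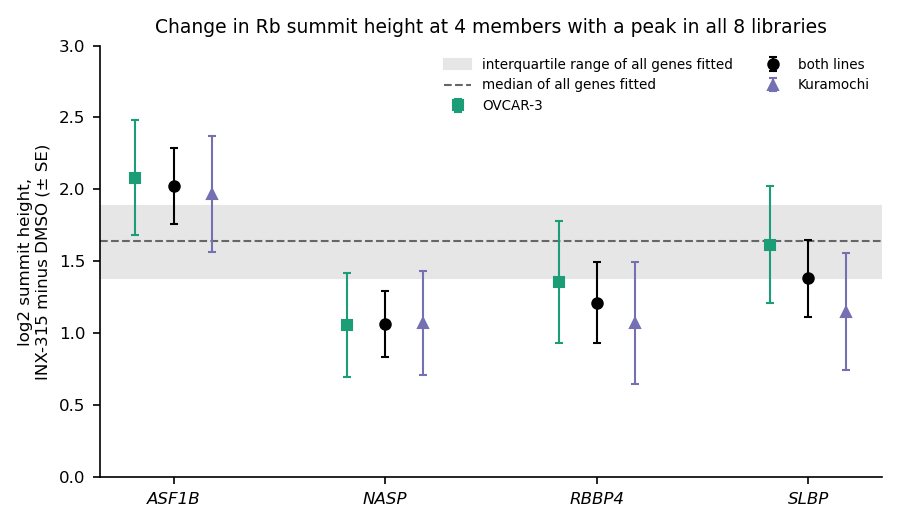
Change in log2 summit height, INX-315 minus DMSO, at 4 members with a peak in all 8 libraries, fitted by limma for both lines together and for each line (± SE), with the median (dashed, 1.64) and interquartile range (grey) of the 3762 genes. ASF1B lies above the dashed line in both lines, and NASP, RBBP4 and SLBP lie below it. CHAF1A is not drawn, because its heights come from 2 different peaks.

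For single promoters the treatment labels were also permuted within each line, which allows 36 arrangements and a smallest two-sided exact p of 0.0556, so that this design cannot reach 0.05. All 8 members gave that smallest exact p = 0.0556, CHAF1A only with the SH3GL1 peak standing in for it under INX-315. For ASF1A, CHAF1B and RBBP7 that p rests on absent DMSO peaks set to the lowest height called in their library. For RBBP7 in Kuramochi the separation holds for height and not for fold enrichment, 7.25 in DMSO library 2 and 7.09 in INX-315 library 2. At its own start, with the absent peak at the lowest height called, CHAF1A changed by 0.66 on the log2 scale (exact p = 0.17). Separation of all heights by treatment in both lines was seen for 97.3% of the 3762 genes, a set that does not hold ASF1A, CHAF1B or RBBP7. With absent peaks set to the lowest height called in their library, the mean change over the lines was 2.09 for CHAF1B, 1.83 for ASF1A and 1.58 for RBBP7 on the log2 scale. These 3 values depend on where the absent peaks are set.

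The response did not differ detectably between the lines. ASF1B rose by 2.08 (SE 0.40) in OVCAR-3 and 1.97 (SE 0.40) in Kuramochi, and NASP by 1.06 (SE 0.36) and 1.07 (SE 0.36). The largest gap among ASF1B, NASP, RBBP4 and SLBP was that of SLBP, 1.62 (SE 0.41) against 1.15 (SE 0.41), a difference of 0.47 (SE 0.58, adjusted p = 0.999, limma interaction). The interaction called 0.0% of the 3762 genes, and 97 passed at an unadjusted p below 0.05. Under DMSO, 7.34% of the genes differed between the lines in either direction, and 0 of the 5 members fitted did. ASF1A, CHAF1B and RBBP7 were not in that fit. RBBP4 came nearest, lower in OVCAR-3 by 0.98 (SE 0.42, adjusted p = 0.14).

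The 3 pairs of related members were compared within libraries by a two-sided exact sign-flip test over the 8 Rb libraries, with absent peaks at the lowest height called and p adjusted over the 3 pairs. ASF1B exceeded ASF1A in all 8 libraries, by 2.93 ± 0.31 on the log2 scale (SD, n = 8; 7.60-fold; adjusted exact p = 0.012). In the 5 libraries with a called ASF1A peak the difference was between 2.48 and 3.34, under either treatment. RBBP4 exceeded RBBP7 in all 8 libraries, by 1.77 ± 0.93 (SD, n = 8; 3.40-fold; adjusted exact p = 0.012). Its size separated the lines: the 4 OVCAR-3 libraries lay between 0.38 and 1.22 and the 4 Kuramochi libraries between 2.44 and 2.81. In Kuramochi DMSO library 1 RBBP7 was not called, so the value of that library rests on the lowest height called. The split was seen in the data and not tested. With fold enrichment over local background in place of height, RBBP4 minus RBBP7 had a mean of 1.34 (adjusted exact p = 0.012).

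CHAF1A and CHAF1B, which are partners and not paralogues, showed no fixed order, and the CHAF1A heights used here include the SH3GL1 peak where it was the stronger. CHAF1A minus CHAF1B was −0.17 ± 0.94 (SD, n = 8; adjusted exact p = 0.61), ranging from −1.40 to 1.26. CHAF1B was the higher in all 4 OVCAR-3 libraries and CHAF1A the higher in 3 of 4 Kuramochi libraries. Those 3 include Kuramochi DMSO library 1, where CHAF1B was not called and was set to the lowest height called. That library gives the 1.26. At the narrower region, which leaves out the SH3GL1 peak, the mean was −0.52 (adjusted exact p = 0.38). The libraries of a line share a genome and an experiment, so the 8 are not independent draws of either promoter.

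**Figure D4:**
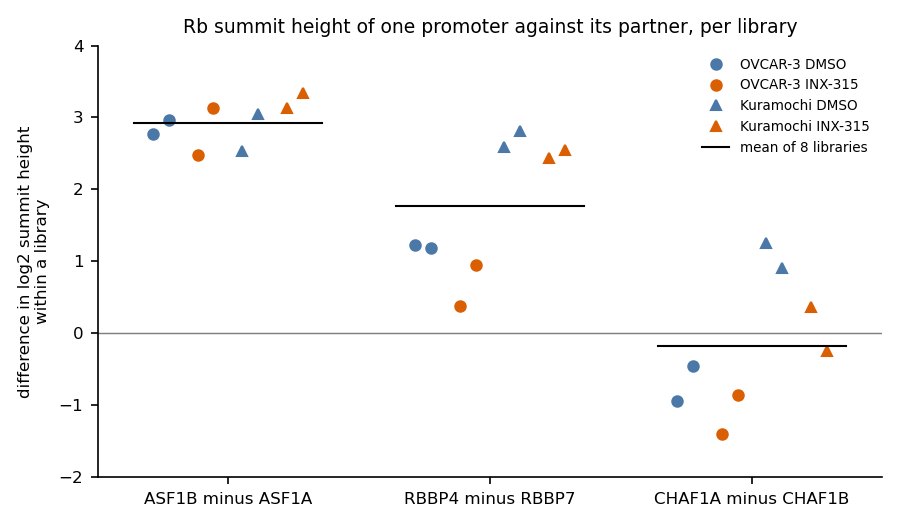
Difference in log2 summit height between partner promoters within each of the 8 Rb libraries (circles OVCAR-3, triangles Kuramochi, blue DMSO, orange INX-315), with the mean as a line. ASF1B minus ASF1A and RBBP4 minus RBBP7 are above 0 in all 8 libraries, and CHAF1A minus CHAF1B falls on both sides of 0. Absent peaks stand at the lowest height called in their library.

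Other genes of histone handling, 49 in 4 lists, gave the surroundings of the members. Of 19 further H3-H4 chaperone genes, 13 were bound in both OVCAR-3 DMSO libraries and 13 in both Kuramochi DMSO libraries, and 18 and 17 under INX-315. Of 8 H2A-H2B chaperone genes, 6 were bound in the DMSO pair of either line and all 8 in the INX-315 pair of either line. Of 10 genes for histone gene transcription and histone mRNA ends, 4 were bound in OVCAR-3 with DMSO and 5 in Kuramochi, and 9 in either line with INX-315. Of 12 genes from complexes that hold RBBP4 or RBBP7, 9 were bound in OVCAR-3 with DMSO and 8 in Kuramochi, and 11 in either line with INX-315. Over all protein-coding genes, 26.8% and 24.8% were bound in OVCAR-3 and Kuramochi with DMSO, and 55.5% and 53.2% with INX-315. SIN3B, a corepressor scaffold, was the one gene with no peak in any Rb library. NPM3, a nucleoplasmin relative, and ERI1, the exonuclease that trims histone mRNA ends, were the only genes of the 49 gained in both lines. Over all protein-coding genes 5.56% were gained in both lines.

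In the fit, 26 of the 49 had a peak in all 8 libraries, against 18.8% of all genes. All 26 were higher under INX-315 and 0 lower, where 99.7% of all genes fitted were higher. Their median change was 1.66, near the 1.64 of all genes. The 6 largest changes were those of NCL (2.38), UBN1 (2.23), LIN9 (1.92), MTA2 (1.90), UBN2 (1.89) and NAP1L4 (1.88), which encode nucleolin, subunits of the HIRA complex (UBN1 and UBN2), a MuvB subunit, a NuRD subunit and a nucleosome assembly protein. After centring on the genes fitted, 1 was higher, NCL, and 6 were lower, against 4.81% and 9.22% of all genes fitted. These 6, named after their values were seen, were MCM2 (−1.07), ANP32E (−1.06), DNAJC9 (−1.01), SUPT16H (−0.82), HAT1 (−0.73) and CASP8AP2 (−0.65). MCM2 is a subunit of the replicative helicase that also holds H3-H4, HAT1 acetylates new H4, and DNAJC9 is a co-chaperone of H3-H4. NASP, at −0.62, was called lower in this scaling, as were 3 of the 11 fitted H3-H4 chaperone genes. Of those 11, 6 rose by less than the median of all genes fitted.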

How the data were processed

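CUT&RUN libraries for Rb (8) and IgG2a (2) were grouped by line and treatment from their labels. The authors trimmed reads, aligned them to hg38 with Bowtie2 (2.3.4.1), removed blacklisted and mitochondrial reads and kept duplicates. They called peaks per library with MACS2 (2.2.7.1) against the IgG2a library of the line at a q-value of 0.05. The deposited lists give a fold enrichment, a linear ratio of summit fragments to local background, and the caller's p-value and q-value, each as its −log10. The lists hold no read totals. Whole fragments and local background at each summit were recovered from the fold enrichment and p-value together (relative tolerance 3e-05), which gave a single solution for 98.6% of peaks or more in every Rb library. The lowest background recovered in a list stood for the library's mean coverage. Low heights rest on few fragments, so their precision is limited.

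Promoters used the starts of GENCODE release 44, and overlap was at least 1 bp. No peak on the 23 main chromosomes ran past the hg38 sequence used here. The strongest overlapping peak stood for a gene. Treatment was tested with limma (3.58.1, trend) in R 4.3.3 on log2 heights, single promoters by exact permutation, and pairs by exact sign flips. The fit was tested on simulated data. Same-numbered replicates did not deviate together (r = −0.042 in OVCAR-3 and −0.008 in Kuramochi), so samples were not paired. Alternatives were another window, stricter q, equal list lengths, summit position, fold enrichment, median centring on the fitted genes or on all peaks, imputed absent peaks, a replicate block and leaving out each library. The narrow window for the fit and the centring on all peaks were chosen after seeing the data. The members and gene lists were chosen with earlier results of these data known. All 8 members are named. Of the other listed genes, those without any peak, those gained in both lines and up to 6 per direction past an adjusted p of 0.05 are named.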

Additional observations from a re-analysis of the deposited data

How the results depend on the processing

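Centring each library on the median of the fitted genes changed the treatment result most: members called higher went from 5 to 0 and members called lower from 0 to 1, while over all genes 181 were higher and 347 lower in place of 3752 and 0. The changes of CHAF1A (−0.33), NASP (−0.62), SLBP (−0.30) and RBBP4 (−0.47) turned negative and that of ASF1B (0.34) lost its call. By construction this scaling removes a change shared by the fitted genes. Centring on the median of all peaks of a library, added after seeing the data, left 3 members and 3068 genes higher and 1 gene lower, with no call for NASP (0.30) or RBBP4 (0.44). The 3 members were ASF1B, SLBP and CHAF1A, and the CHAF1A heights mix the peak at its own start with the SH3GL1 peak. Setting absent peaks to the lowest height called in their library added genes to the fit and raised the calls to 8 members and 12217 genes. Leaving out 1 library at a time gave 5 to 7 members and 3730 to 4660 genes called higher, with CHAF1B and RBBP7 entering the fit without Kuramochi DMSO library 1. The same omission raised the members bound in Kuramochi under DMSO from 5 to 8, against 5 without library 2. The replicate block called 5 members and 3754 genes higher, and it changed no member's call. CHAF1A minus CHAF1B turned to 0.045 (adjusted exact p = 0.93) with fold enrichment as deposited, and it ranged from −0.372 to 0.008 when each library was left out, positive only without OVCAR-3 INX-315 library 1. ASF1B minus ASF1A and RBBP4 minus RBBP7 kept direction and call under all 11 alternatives each. Because every library had a positive difference, leaving 1 out could change neither direction nor call, so those alternatives do not bear on either. A summit inside the promoter region was not met by NASP in any group, by CHAF1A in OVCAR-3 with INX-315 or by ASF1A in Kuramochi with INX-315, beside the members without a peak, which left 6, 6, 4 and 6 members bound in the OVCAR-3 DMSO, OVCAR-3 INX-315, Kuramochi DMSO and Kuramochi INX-315 groups. Summits of 7 to 18 fragments, as at ASF1A, limit what a missing peak can show, and 2 libraries per group limit every test within a line.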
